A study of Mus musculus with 4 samples.

Results

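The cell cycle genes followed here are 44 genes of the 21884 whose UMIs (unique molecular identifiers, each standing for 1 captured RNA molecule) were counted in nuclei of mouse hearts. They were chosen by symbol and comprise 25 genes of the G2 and M phases, 11 genes of the S phase, 7 genes of G1 and of cell cycle control, and Ezr, which encodes the membrane and actin linker ezrin and is grouped on its own. All 44 symbols had a row in each matrix. Nuclei of 4 whole hearts were profiled by single-nucleus RNA sequencing, each heart as its own library, in droplets that capture the 3' end of transcripts; the mice were wild-type C57BL/6J males. In 2 libraries the offspring had injured fathers (injured-father libraries 1 and 2), and in 2 libraries the offspring had uninjured fathers (uninjured-father libraries 1 and 2). Every offspring, in both groups, had itself been injured at day 1 after birth, and its heart was taken 21 days after that injury. The set therefore holds no uninjured offspring, and the sources used here give neither the kind of injury nor the fathers' identities or litters. Nuclei were sorted with an antibody against Ter119, a marker of the red blood cell lineage, and lymphocyte- and macrophage-like nuclei remained; p-values below measure the spread between these hearts, 1 preparation each.

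A dividing cell copies its DNA in S phase, prepares mitosis in G2 and separates its chromosomes in M phase. D-type cyclins and their kinases release E2F transcription factors at the end of G1. E2F then switches on replication genes, and later the mitotic genes are switched on together, in large part through promoter elements known as the CHR (cell cycle genes homology region) and the CCAAT box. Mouse cardiomyocytes largely leave the cell cycle in the days after birth, when many complete a last nuclear division without cell division, whereas macrophages, endothelial cells and fibroblasts of the heart keep some capacity to divide. A nucleus in G2 or M is therefore recognised by the joint presence of several mitotic transcripts, not by any 1 gene.

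After filters and removal of predicted doublets, 8246 and 9545 nuclei remained in the injured-father libraries, against 9416 and 6795 in the uninjured-father libraries (34002 in all). Uninjured-father library 2 was the shallowest, with a median of 1864 UMIs per nucleus, against 2127 to 2671 in the others, and it had the highest share of predicted doublets, 14.8% against 9.62% to 9.90%. Library pairs shared 22 to 31 cell barcodes. Nuclei fell into 12 named classes by marker genes, from clusters made without the cell cycle genes, and each class is a likeness to a cell type ("-like"), with 813 nuclei in 4 unnamed clusters. In each library, the summed markers of every class stood at least 7.25 times higher in that class than in the other nuclei. In cardiomyocyte-like nuclei they were at 80669 to 94737 CPM (UMIs of a gene or list per 1000000 UMIs of the same nuclei), against 5548 to 7350 CPM in the other nuclei. Cardiomyocyte-like nuclei made up 23.2% and 26.6% of the injured-father libraries, against 30.7% and 31.2% of the uninjured-father libraries. Nuclei of lymphocytes and adipocytes were most frequent in injured-father library 1: the share of B lymphocyte-like nuclei was 3.54% and 1.34% in injured-father libraries, against 1.92% and 0.927% in uninjured-father libraries, and that of T or NK lymphocyte-like nuclei was 2.38% and 0.870%, against 0.701% and 0.280%. Adipocyte-like nuclei made 2.10% and 1.10% of injured-father libraries, against 0.170% and 0.103% of uninjured-father libraries, so both injured-father hearts had more of them.

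The upstream sequences of 6 members are shown because those genes recur below and come from both the G2/M and the S lists. Each is the 250 bases before the RefSeq start of the gene (GRCm38.p6, 5′ to 3′ on the gene's own strand), in lower case, with matches to 3 motifs in capitals on either strand: the CHR, searched as TTTGAA and also as the variant TTCGAA, the CCAAT box, searched by the letters of its name, and the E2F element, searched as TTTCCCGC, as TTTCGCGC, as TTTGCCGC and as TTTGGCGC. Mki67 encodes Ki-67, which coats mitotic chromosomes (chr7:135716380-135716629, minus strand), Top2a encodes the DNA topoisomerase that untangles sister chromatids (chr11:99024190-99024439, minus strand), and Cenpf encodes a large protein of the kinetochore (chr1:189688087-189688336, minus strand). Ccnb2 encodes cyclin B2, a partner of the mitotic kinase Cdk1 (chr9:70421555-70421804, minus strand), Mcm6 a subunit of the replicative helicase (chr1:128359706-128359955, minus strand), and Brip1 a helicase that works with Brca1 in DNA repair (chr11:86201194-86201443, minus strand).
Mki67: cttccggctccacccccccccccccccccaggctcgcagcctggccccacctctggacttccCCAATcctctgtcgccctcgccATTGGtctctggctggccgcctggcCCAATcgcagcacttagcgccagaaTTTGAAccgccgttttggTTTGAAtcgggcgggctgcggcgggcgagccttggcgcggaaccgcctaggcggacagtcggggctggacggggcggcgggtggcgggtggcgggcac
Top2a: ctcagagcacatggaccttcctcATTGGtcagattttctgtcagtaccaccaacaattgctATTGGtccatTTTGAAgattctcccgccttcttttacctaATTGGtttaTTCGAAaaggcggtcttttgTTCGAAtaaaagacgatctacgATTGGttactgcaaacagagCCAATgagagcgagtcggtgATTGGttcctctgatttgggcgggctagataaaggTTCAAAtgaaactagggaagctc
Cenpf: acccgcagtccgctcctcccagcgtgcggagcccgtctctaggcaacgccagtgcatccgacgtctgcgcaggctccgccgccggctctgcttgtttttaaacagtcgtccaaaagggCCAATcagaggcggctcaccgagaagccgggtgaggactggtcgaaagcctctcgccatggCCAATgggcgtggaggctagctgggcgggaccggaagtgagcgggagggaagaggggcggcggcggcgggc
Ccnb2: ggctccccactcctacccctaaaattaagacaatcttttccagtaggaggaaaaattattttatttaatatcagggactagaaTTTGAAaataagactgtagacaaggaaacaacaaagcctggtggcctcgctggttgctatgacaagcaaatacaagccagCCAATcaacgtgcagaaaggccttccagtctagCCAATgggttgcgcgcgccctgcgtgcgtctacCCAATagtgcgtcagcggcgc
Mcm6: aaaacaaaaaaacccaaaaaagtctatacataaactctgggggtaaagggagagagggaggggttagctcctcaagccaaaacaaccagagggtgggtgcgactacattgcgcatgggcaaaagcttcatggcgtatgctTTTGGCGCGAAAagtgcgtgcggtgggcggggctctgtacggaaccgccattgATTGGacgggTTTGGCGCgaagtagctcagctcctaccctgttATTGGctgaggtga
Brip1: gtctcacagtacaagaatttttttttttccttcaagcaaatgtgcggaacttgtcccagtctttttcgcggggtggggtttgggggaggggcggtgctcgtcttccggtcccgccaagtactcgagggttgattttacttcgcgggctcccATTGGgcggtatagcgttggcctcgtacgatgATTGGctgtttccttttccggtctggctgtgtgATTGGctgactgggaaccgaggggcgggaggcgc

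Top2a had 4 CHR and 6 CCAAT matches and Mki67 had 2 CHR and 3 CCAAT matches, whereas Cenpf had 2 CCAAT matches and no CHR match in this window. Mcm6 had 3 E2F and 2 CCAAT matches. Such windows of 250 bases were matched for 37 of the 44 members. A CHR match lay in 9 of 22 G2/M promoters (40.9%) and in 1 of 10 S promoters (10.0%), beside 17.4% of 27025 promoters of all genes. CCAAT matches were found in 18 of 22 G2/M promoters (81.8%) and 10 of 10 S promoters (100.0%), beside 34.5% of all promoters. E2F matches were found in 2 of 22 G2/M promoters (9.09%) and 3 of 10 S promoters, beside 1.91% of all promoters. None of the 4 G1 promoters had any of the 3 motifs. These counts describe letters in a window and show no binding.

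Few nuclei carried several G2/M members, and macrophage- or monocyte-like nuclei had the highest share of them. To compare shares across depths, each nucleus was thinned to 1000 UMIs, and nuclei with fewer were left out (920 and 496 in the injured-father libraries, against 718 and 882 in the uninjured-father libraries). UMIs of at least 2 of the 25 G2/M members were then found in 231 of 30986 nuclei, and UMIs of at least 2 of the 11 S members in 241. Without thinning, 538 of 34002 nuclei (1.58%) had at least 2 G2/M members and 1088 (3.20%) at least 2 S members. Shares given for classes below are means of the 4 libraries' thinned shares, so that each heart counts equally.

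Macrophage- or monocyte-like nuclei had G2/M members in 8.27% of nuclei on average (95 of 1152), with 12.7% and 4.14% in the injured-father libraries, against 8.74% and 7.56% in the uninjured-father libraries. They were shallow nuclei, with a median of 1451 UMIs, and their share without thinning was 9.40%. Lymphatic endothelial-like nuclei followed with 4.22% (12 of 269) and T or NK lymphocyte-like nuclei with 3.40% (10 of 274). These neighbours overlapped from library to library: the lymphatic endothelial share ran from 2.56% to 5.19% and the T or NK share from 0 to 7.35%, so the order among the 3 classes is not resolved. Schwann or glial-like nuclei stood at 2.39% (5 of 184), B lymphocyte-like at 1.86% (6 of 436) and smooth muscle-like at 1.21% (5 of 390), each resting on a handful of nuclei. The large stromal and vascular classes were lower, with 0.585% of vascular endothelial-like (32 of 6071), 0.431% of endocardial-like (5 of 1110), 0.413% of fibroblast-like (30 of 7876) and 0.346% of pericyte-like nuclei (9 of 2792). The lowest macrophage library, 4.14%, stood above the highest fibroblast library, 0.751%, and the highest vascular endothelial library, 0.956%.

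S-phase members gave the same leading class by mean, with overlap between libraries. The lowest macrophage library lay below the highest T or NK library, 4.41%, and the highest lymphatic endothelial library, 2.60%. At least 2 S members were found in 6.48% of macrophage- or monocyte-like nuclei (8.73% and 1.93% in the injured-father libraries, against 7.69% and 7.56% in the uninjured-father libraries), and in 1.79% of T or NK-like nuclei. Endocardial-like nuclei reached 1.02%, vascular endothelial-like 0.831% and fibroblast-like 0.818%, and these 3 shares are not separable by their spread. The S member Pola1 was found, before thinning, in 18.2% of endocardial-like and 21.4% of fibroblast-like nuclei. The shares of these classes without Pola1 are not given here. In macrophages, injured-father library 2 was the lowest of the 4 hearts for both phases and injured-father library 1 the highest, so the father groups overlapped.

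**Figure D1:**
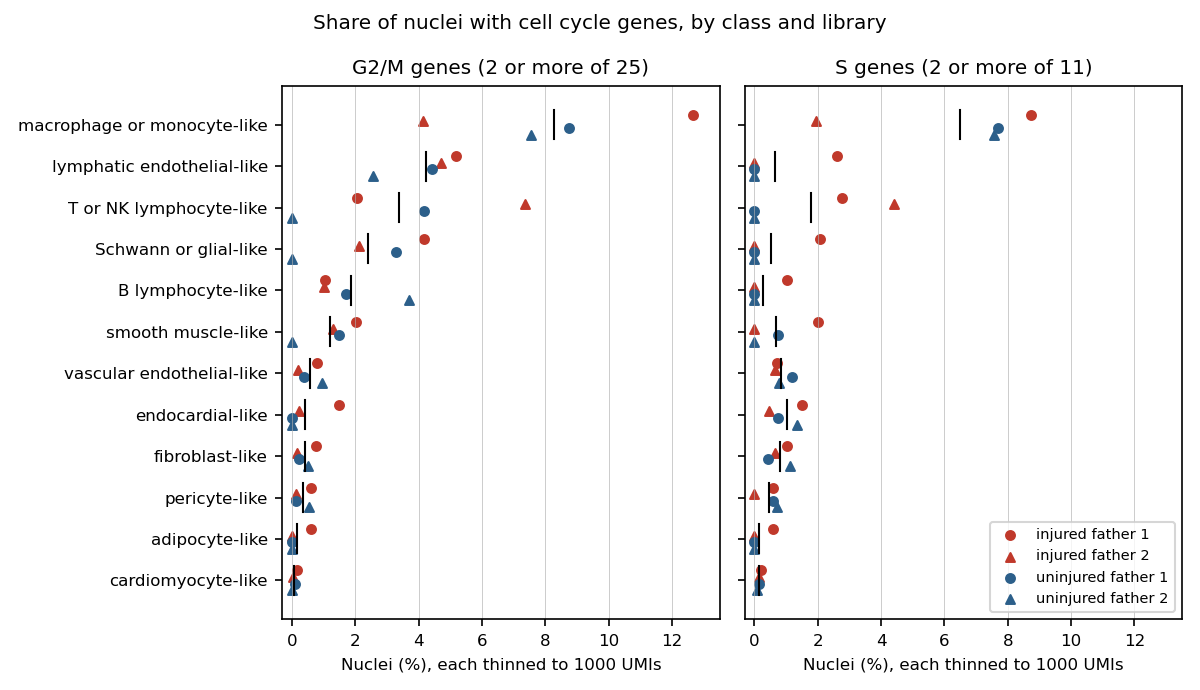
Share of nuclei with UMIs of at least 2 G2/M members and at least 2 S members by class, after thinning to 1000 UMIs; each point is 1 library and the bar marks the mean of the 4 libraries. Macrophage- or monocyte-like nuclei lead by mean for both phases, at 8.27% and 6.48%, and cardiomyocyte-like nuclei stand at 0.0751% and 0.15%.

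After thinning, cardiomyocyte-like nuclei had the lowest mean share for G2/M. Without thinning their pooled share was 1.18%, above fibroblast-like (0.922%), vascular endothelial-like (0.754%) and pericyte-like nuclei (0.694%). Their median depth was 4318 UMIs, against 2214, 1556 and 1646 UMIs in those classes. The order of these classes therefore depended on thinning. After thinning, at least 2 G2/M members were found in 3 of 1910 and 1 of 2538 nuclei of the injured-father libraries, against 3 of 2887 and 0 of 2118 nuclei of the uninjured-father libraries. These are 0.157% (95% exact binomial interval 0.0324% to 0.458%) and 0.0394% (0.000998% to 0.219%) with injured fathers, against 0.104% (0.0214% to 0.303%) and 0 (which allows a share of up to 0.142%) with uninjured fathers. The group means differed by 0.0463 percentage points, and the exact two-sided permutation test gave p = 0.667. That test cannot go below 0.33 with 2 hearts against 2, so it could not have passed 0.05 for any difference. Intervals and limits cover counting error only.

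In cardiomyocyte-like nuclei, S-phase members were found in 0.209% and 0.158% with injured fathers, against 0.139% and 0.0944% with uninjured fathers (14 of 9453 nuclei in all). The injured-father libraries were both higher, which gives the smallest p the exact permutation test allows, 0.33, and the 4 intervals overlapped. These S shares rested largely on Pola1, which was found in 21.2% of cardiomyocyte-like nuclei before thinning. With Pola1, Cenpf, Anln and Diaph3 left out of the lists, they were 0 and 0 with injured fathers, against 0 and 0.0472% with uninjured fathers. Adipocyte-like nuclei, mature cells that do not divide, gave 0.148% for G2/M and 0.148% for S as means of the 4 libraries. These means gave equal weight to hearts with 16 and 7 such nuclei before thinning. Pooled, each was 1 nucleus of 291, or 0.344% (exact interval 0.0087% to 1.90%). Their median depth before thinning was 2779 UMIs, against a median of 4318 UMIs in cardiomyocyte-like nuclei. The adipocyte interval also covered the pooled thinned G2/M shares of fibroblast-like (0.381%) and vascular endothelial-like nuclei (0.527%). Without thinning, 1 adipocyte-like nucleus had at least 5 G2/M members. The adipocyte shares are therefore too imprecise to set a baseline, and no conclusion on cardiomyocyte-like nuclei is drawn from them. No difference between father groups was detectable in cardiomyocyte-like nuclei. In a second draw of the thinning the injured-father minus uninjured-father differences turned, to -0.0470 percentage points for G2/M and -0.0224 for S.

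Over all nuclei, G2/M members were found in 1.31% and 0.453% of nuclei with injured fathers, against 0.655% and 0.626% with uninjured fathers. The means were 0.882% ± 0.606 and 0.641% ± 0.0209 (SD, n = 2 each), and the exact permutation test gave p = 1.0. S members were found in 1.13% and 0.497% of nuclei with injured fathers, against 0.747% and 0.812% with uninjured fathers, again with an exact permutation p of 1.0. Both injured-father values lay outside the range of the uninjured-father values, on opposite sides, for both phases. With Pola1, Cenpf, Anln and Diaph3 left out, the S shares were 0.437% and 0.166% with injured fathers, against 0.230% and 0.389% with uninjured fathers. The higher of the injured-father libraries was also the one with the most lymphocyte-like nuclei and 5.09% of macrophage- or monocyte-like nuclei, against 4.35% in the other injured-father library and 4.07% and 3.68% in the uninjured-father libraries; the part of these classes in the difference was not tested.

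A stricter mark of a mitotic programme, at least 5 of the 25 G2/M members in a nucleus without thinning, was met by 145 of 34002 nuclei (0.426%). Macrophage- or monocyte-like nuclei held 73 of the 145. The rest comprised 17 fibroblast-like, 17 unnamed, 14 vascular endothelial-like, 9 lymphatic endothelial-like, 7 T or NK-like, 4 endocardial-like, 2 pericyte-like, 1 cardiomyocyte-like and 1 adipocyte-like nucleus, with none among B lymphocyte-, smooth muscle- or Schwann-like nuclei. By heart, the count was 60 and 28 in injured-father libraries, against 33 and 24 in uninjured-father libraries, or 0.728% and 0.293% of nuclei, against 0.35% and 0.353%. In macrophages alone it was 34 and 13, against 17 and 9. The number of G2/M members had a long tail: 29807 nuclei had none, 3657 had 1, 326 had 2, 42 had 3, 25 had 4 and 17 had 5, and the highest was 23 in a nucleus.

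The S members, which were not used to pick these nuclei, were found with them. At least 2 S members were present in 61.4% of the 145 nuclei, against 2.60% of nuclei with no G2/M member. In the separate hearts the shares were 58.3% and 64.3% (injured fathers) and 60.6% and 66.7% (uninjured fathers) among the strict G2/M nuclei, against 2.80%, 3.01%, 2.60% and 1.80% among nuclei with none. Depth was similar, with medians of 2628 and 2242 UMIs, and after thinning the shares were 31.4% (44 of 140) and 0.541%. The sets differed in class: 73 of the 145 were macrophage- or monocyte-like, against 1097 of the 29807 with no G2/M member. That class had at least 2 S members in 10.1% of its nuclei without thinning. The part of class in the contrast was not tested. Intermediate nuclei lay between, with 4.10% at 1 G2/M member, 12.9% at 2 and 47.8% at 3 or 4.

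Members outside the G2/M list differed widely in how much of their RNA came from these 145 nuclei, which held 0.522% of all UMIs. They carried 33.5% of the UMIs of Brca1, a DNA repair gene, 28.8% of those of Rrm2, the S-phase subunit of ribonucleotide reductase, and 12.4% of those of Brip1. For E2f1, the transcription factor that drives S-phase entry, it was 10.3%, and for Ccne2, cyclin E2, 10.2%, while Ccne1 had 3 of its 25 UMIs there. Next came the helicase subunits Mcm5 at 7.19%, Mcm3 at 6.81%, Mcm4 at 5.08%, Mcm2 at 4.46% and Mcm6 at 2.48%, with Rrm1, the other subunit of ribonucleotide reductase, at 6.83%, Pcna, the replication clamp, at 4.49% and Pola1, the catalytic subunit of DNA polymerase alpha, at 3.60%. The lowest were Ezr at 1.37%, the cyclin-dependent kinase inhibitor Cdkn1a (p21) at 1.07%, and the D-type cyclins Ccnd1 at 1.01%, Ccnd3 at 0.578% and Ccnd2 at 0.309%. Among G2/M members, which chose the nuclei, the description ran from 75.0% for Bub1, a kinase of the spindle checkpoint, 68.0% for Mki67 and 63.4% for Top2a down to 19.4% for Cenpf, 8.49% for Plk1 and 7.86% for Ccnb2.

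Each member's own level showed the same order of classes, with exceptions. Macrophage- or monocyte-like nuclei had the highest mean level of 18 of the 25 G2/M members and 7 of the 11 S members, while cardiomyocyte-like nuclei had the lowest of 6 and 3. Small classes also held many of the lowest levels: Schwann or glial-like nuclei (233) for 8 G2/M members and 1 S member, and adipocyte-like nuclei (301) for 5 G2/M and 7 S members. Mki67 averaged 77.6 CPM in macrophage- or monocyte-like nuclei over the 4 libraries, with 106 and 55.6 CPM in injured-father libraries against 73.6 and 75.5 CPM in uninjured-father libraries. In cardiomyocyte-like nuclei it was at 1.31 and 0.608 CPM, against 1.53 and 1.69 CPM, and these were the lowest class. Top2a averaged 60.8 CPM in macrophage- or monocyte-like and 0.697 CPM in cardiomyocyte-like nuclei.

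Several members were led by other classes or shared their top. Anln, encoding anillin of the contractile ring, stood at 38.5 CPM in macrophage- or monocyte-like, 35.9 CPM in Schwann or glial-like and 35.8 CPM in smooth muscle-like nuclei. Diaph3, encoding a formin that assembles actin, stood at 135 CPM in macrophage- or monocyte-like and 114 CPM in Schwann or glial-like nuclei. Brip1 was highest in smooth muscle-like nuclei, at 40.7 CPM. Among G1 members, Ccnd2 was highest in pericyte-like nuclei (204 CPM), Ccnd1 in Schwann or glial-like (70.1 CPM) and vascular endothelial-like nuclei (52.0 CPM). Ezr was highest in B lymphocyte-like nuclei (227 CPM). Ccnd3, cyclin D3, was highest in lymphocyte-like nuclei, at 3548 CPM in T or NK-like and 3092 CPM in B-like, against 70.1 CPM in cardiomyocyte-like nuclei, the lowest class.

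**Figure D2:**
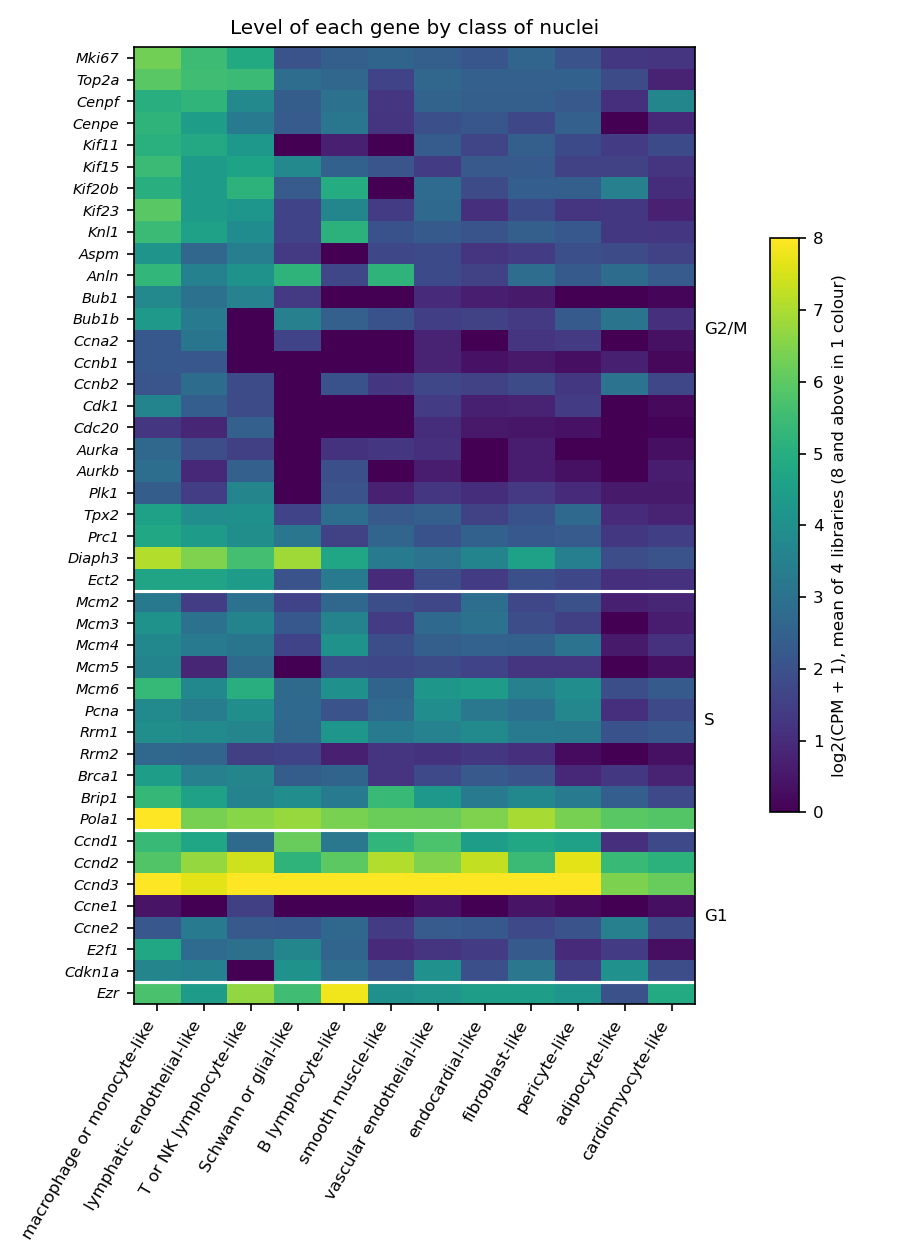
Mean level of each cell cycle gene in each class, as log2(CPM + 1) of the mean of the 4 libraries; values of 8 and above share 1 colour. Most G2/M and S members are highest in macrophage- or monocyte-like nuclei, as for Mki67 (77.6 CPM there and 1.28 CPM in cardiomyocyte-like nuclei), while Cenpf ranks 4 of 12 in cardiomyocyte-like nuclei.

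Cardiomyocyte-like nuclei were compared with all other nuclei of the same heart in 1 fit across 13986 genes (edgeR quasi-likelihood test, library as a block, Benjamini-Hochberg adjustment). Most genes differed: 81.8% passed an adjusted p of 0.05, 38.6% higher and 43.2% lower. The scaling of the sums moved all genes together. With TMM scaling (edgeR's trimmed mean) the median log2 difference of all genes was -0.07, and with library totals only it was -0.73. Of the 44 members, 38 had enough UMIs to be tested. With TMM, 31 fell and 3 rose, with a median log2 difference of -1.40 over the members. With library totals only, 33 fell and 1 rose, with a median of -2.06. Some members, such as E2f1, Cdk1, Mcm5, Rrm2 and Ccna2, had 0 to 6 UMIs per heart in cardiomyocyte-like nuclei. They had enough UMIs to be tested only through the other nuclei, so among calls only a fall was open to them. In cardiomyocyte-like nuclei alone, 28 members had enough UMIs to be tested. Values below are TMM-scaled CPM and log2 differences unless stated.

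All 11 S members fell, but for Mcm5 and Rrm2 only a fall was open, as stated above. Mcm3, a helicase subunit, was at 1.27, 0.259, 0.398 and 0.778 CPM in cardiomyocyte-like nuclei (injured-father libraries first), against 3.91, 3.79, 3.68 and 3.37 CPM in the other nuclei. These values did not overlap, with a log2 difference of -2.59 (SE 0.34, adjusted p = 5.32e-05). Mcm3 rested on 10, 3, 5 and 5 UMIs in cardiomyocyte-like nuclei, against 67, 85, 69 and 35 UMIs in the others. Brip1 fell by 1.99 and Mcm5 by 2.33, while Pola1 fell least, by 0.27 (adjusted p = 0.00321), with 84.5, 66.1, 77.5 and 57.4 CPM against 94.4, 85.8, 87.7 and 74.8 CPM. The Pola1 ranges overlapped between hearts, but cardiomyocyte-like nuclei were lower in each of the 4.

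Of 20 G2/M members tested, 15 fell, among them Cdk1 and Ccna2, for which only a fall was open. Top2a was at 1.53, 0.259, 1.11 and 0.622 CPM in cardiomyocyte-like nuclei, against 10.6, 4.64, 5.65 and 7.04 CPM in the other nuclei, a log2 difference of -2.95 (SE 0.25, adjusted p = 2.13e-06). Mki67 fell by 2.12 (adjusted p = 1.43e-05), Cdk1, the kinase that starts mitosis, by 2.76, Kif23, a kinesin of cytokinesis, by 2.73, and Diaph3 by 2.32. In cardiomyocyte-like nuclei Cdk1 rested on 0 to 3 UMIs per heart and Kif23 on 5 to 9. Aspm, a spindle pole protein, Kif11, the kinesin that separates spindle poles, and Anln did not pass with TMM, at 0.17, -0.39 and -0.33. With library totals only, Kif11 and Anln fell, by 1.05 and 0.99 (adjusted p = 0.00255 and 0.000232), and Aspm was at -0.49 (adjusted p = 0.119).

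Cenpf was the exception. It was at 14.5, 11.5, 16.2 and 16.5 CPM in cardiomyocyte-like nuclei, against 7.11, 4.50, 3.31 and 5.98 CPM in the other nuclei, with every cardiomyocyte value above every other value. The log2 difference was 1.52 (SE 0.18, adjusted p = 2.95e-05), and with library totals only it was 0.86 (adjusted p = 0.00151). Cenpf was the only member to rise under both scalings. Ccnb2 and Ezr also rose with TMM, by 0.70 (adjusted p = 0.0281) and 0.66 (adjusted p = 0.0048), but with library totals only Ccnb2 was at 0.03 and Ezr at -0.01, with adjusted p of 0.902 and 0.958. Ccnb2 was also lost with DESeq2, and when injured-father library 1, injured-father library 2 or uninjured-father library 1 was left out.

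**Figure D3:**
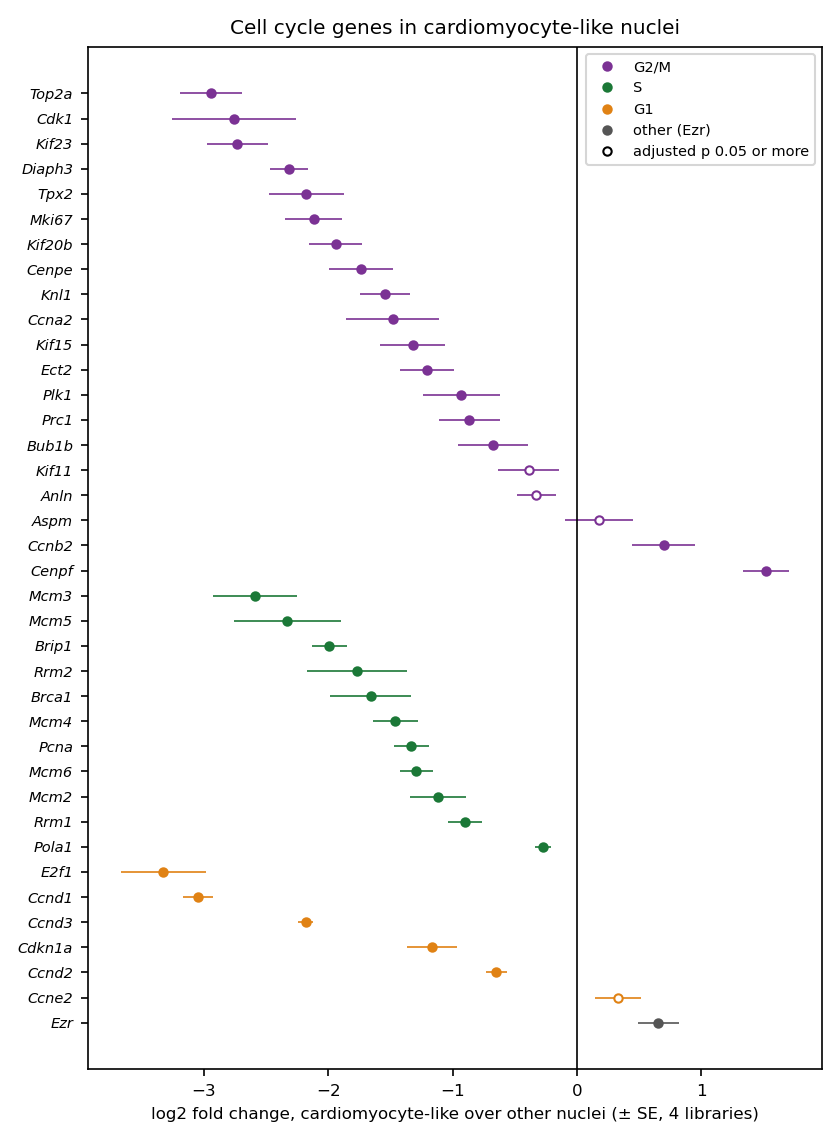
Log2 difference of each tested member between cardiomyocyte-like and other nuclei of the same hearts, with its standard error, from TMM-scaled sums of 4 libraries (edgeR); open circles did not pass an adjusted p of 0.05. Cenpf stands at 1.52 and most members below 0, down to -3.33 for E2f1 (1 to 6 UMIs per heart in cardiomyocyte-like nuclei). Ezr, Aspm and Ccne2 lie above 0 here and at -0.01, -0.49 and -0.33 with library totals only.

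By class, Cenpf averaged 11.7 CPM in cardiomyocyte-like nuclei, with libraries between 8.98 and 13.8 CPM, against 36.6 CPM in lymphatic endothelial-like, 31.9 CPM in macrophage- or monocyte-like and 12.6 CPM in T or NK-like nuclei. It was at 4.35 CPM in fibroblast-like, 4.79 CPM in vascular endothelial-like and 1.11 CPM in adipocyte-like nuclei. The other members of the G2/M list seldom came with it in cardiomyocytes. Of 414 cardiomyocyte-like nuclei with a Cenpf UMI, 51 (12.3%, exact interval 9.31% to 15.9%) had another G2/M member, at a median of 5371 UMIs. Among macrophage- or monocyte-like nuclei it was 31 of 43 (72.1%, 56.3% to 84.7%) at a median of 2286 UMIs, and among fibroblast-like nuclei 19 of 61 (31.1%, 19.9% to 44.3%). The cardiomyocyte share was thus the lowest of these although its nuclei were the deepest.

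Against macrophage- or monocyte-like nuclei, the same held for other mitotic genes in cardiomyocyte-like nuclei. Another G2/M member accompanied Mki67 in 10 of 47 cardiomyocyte-like nuclei (21.3%), against 71 of 81 macrophage- or monocyte-like nuclei (87.7%), and accompanied Top2a in 5 of 23 (21.7%), against 68 of 77 (88.3%). Against fibroblast-like nuclei the Mki67 share was also lower, with 26 of 40 there and exact intervals that did not overlap. Anln and Ccnb2 were not separable in this way. Another G2/M member accompanied Anln in 22 of 160 cardiomyocyte-like, 16 of 100 fibroblast-like and 5 of 27 vascular endothelial-like nuclei. For Ccnb2 it was 19 of 107, 11 of 50 and 5 of 22, and for both genes the exact intervals overlapped. Of the 112 cardiomyocyte-like nuclei with at least 2 G2/M members before thinning, 51 had Cenpf, 22 Anln, 22 Aspm, 19 Ccnb2, 19 Kif11, and 14 Mki67 or Top2a. Their median depth was 6263 UMIs, against 4203 UMIs in cardiomyocyte-like nuclei with none. Their cardiomyocyte markers were at 85762 CPM, against 85031 CPM. The only cardiomyocyte-like nucleus with 5 or more G2/M members had 10363 UMIs and cardiomyocyte markers at 48731 CPM. The macrophage markers of that nucleus were at 193 CPM, against 37.9 CPM in nuclei with no G2/M member. Its markers of other classes were at 2026 CPM, against 2119 CPM in those nuclei. Its doublet score was 0.0196, against a median of 0.0363. Whether it was a doublet was not tested beyond the caller.

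G1 members fell in cardiomyocyte-like nuclei in 5 of 6 cases. E2f1 had the largest fall of all members, 3.33. It rested on 1, 2, 6 and 3 UMIs in cardiomyocyte-like nuclei, against 70, 54, 67 and 29 UMIs in the others. Ccnd1 fell by 3.05, with 3.82, 2.24, 2.71 and 3.42 CPM in cardiomyocyte-like nuclei, against 30.5, 14.5, 26.3 and 31.0 CPM in the others. Ccnd3 fell by 2.18, Cdkn1a by 1.17 and Ccnd2 by 0.65. Ccne2 did not pass, at 0.33 with TMM and -0.33 with library totals only.

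Other genes of the cycle, from wider lists, moved in both directions. Of 41 further G2/M genes tested, 32 fell and 4 rose with TMM. Smc4, a condensin subunit, fell by 1.62, whereas Cenpa, the centromeric histone, rose by 2.55 and Ncapd2, another condensin subunit, by 2.13. Of 59 further S genes, 34 fell and 11 rose, among them the primase subunit Prim2 at -1.09 and the uracil DNA glycosylase Ung at 2.67. Of 32 control genes, 14 fell and 7 rose, including Rbl1, a pocket protein, at -2.42 and Tfdp2, the partner of E2F factors, at 2.04. The members' and these lists' shares of falls stand beside the 43.2% of all genes that fell.

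Father groups were then compared in sums over all nuclei, where fewer nuclei of a type and less RNA per nucleus cannot be told apart. No member differed. Of 14893 genes tested, 13 passed (0.0873%), and of the 43 members tested, 0 passed by edgeR's quasi-likelihood test or by DESeq2. An unadjusted p under 0.05 was found for 2 of the 43 members, beside 7.04% of all genes. In 10 members both injured-father values were above both uninjured-father values, and in 1 member both were below, beside 17.6% and 17.8% of all genes.

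Kif11 had the smallest p among the G2/M members, with 7.21 and 3.64 CPM with injured fathers, against 2.74 and 3.16 CPM with uninjured fathers, a log2 difference of 0.88 (SE 0.35, unadjusted p = 0.0412, adjusted p = 0.677, edgeR). Both injured-father libraries were higher. Mki67 was at 8.84 and 3.46 CPM, against 4.26 and 5.39 CPM (0.35, adjusted p = 0.937), and Top2a at 8.05 and 3.28 CPM, against 3.97 and 4.77 CPM (0.37, adjusted p = 0.934). For both, injured-father library 1 was the highest and injured-father library 2 the lowest of the 4. Diaph3 followed the same pattern, with 23.3 and 10.1 CPM, against 13.6 and 11.9 CPM (0.37), and without injured-father library 2 it would have passed (0.86, adjusted p = 0.00355), as would Kif11 (1.30, adjusted p = 0.00503) and Kif15, another spindle kinesin (1.19, adjusted p = 0.0181). With that heart left out, the remaining injured-father heart is assumed to vary like the others.

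Cenpf was at 9.84 and 7.17 CPM with injured fathers, against 8.76 and 10.4 CPM with uninjured fathers (-0.17), and Anln at 6.92 and 4.47 CPM, against 4.92 and 6.63 CPM (-0.01). Of the S members, Pola1 was at 95.2 and 82.4 CPM, against 86.5 and 70.9 CPM (0.17), Mcm6 at 11.2 and 10.1 CPM, against 8.72 and 9.17 CPM (0.25, adjusted p = 0.863), and Rrm1 at 8.13 and 7.23 CPM, against 6.71 and 6.07 CPM (0.26, adjusted p = 0.89). Mcm6 and Rrm1 did not overlap between the groups but did not pass. Brip1 was at 10.8 and 7.29 CPM, against 9.29 and 8.73 CPM.

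Ccnd3 had the smallest p of the members. It was at 285 and 432 CPM with injured fathers, against 274 and 206 CPM with uninjured fathers, a log2 difference of 0.58 (SE 0.22, unadjusted p = 0.0301, adjusted p = 0.632, edgeR). The value came mostly from injured-father library 2, which was the highest library in 12 of 12 classes, although the adipocyte-like class held few nuclei in some hearts. Without injured-father library 1 Ccnd3 passed, at 0.85 (adjusted p = 0.00187), and Ccnd1 then also passed in the opposite direction, at -0.84 (adjusted p = 0.0141). Ccnd3 overlaps Bysl on the other strand (chromosome 17, 47505051 to 47599691, GRCm38), and the sources used here do not say whether the counting used strand. Ccnd1 was at 23.1 and 10.8 CPM, against 17.4 and 21.3 CPM, and Ccnd2 at 70.1 and 49.2 CPM, against 58.7 and 66.9 CPM, so that injured-father library 2 was the lowest for both.

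The remaining control genes lay close together. Ccne2 was at 2.79 and 2.91 CPM, against 3.17 and 2.91 CPM, E2f1 at 2.96 and 1.72 CPM, against 2.41 and 1.98 CPM, and Cdkn1a at 4.13 and 9.19 CPM, against 5.45 and 5.70 CPM. Ezr differed by -0.02, with 28.0 and 28.4 CPM, against 28.1 and 29.3 CPM. Ccne1, cyclin E1, had 25 UMIs in all and was not tested.

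**Figure D4:**
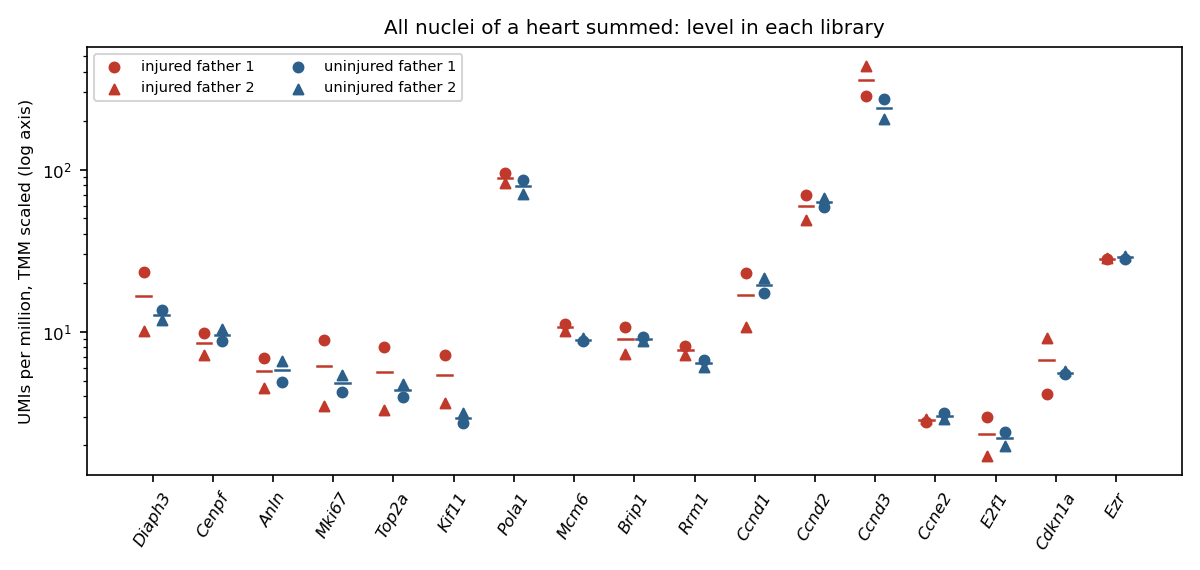
TMM-scaled CPM of members in sums over all nuclei, by library on a log axis, with injured-father libraries left of uninjured-father libraries; points are single hearts and short lines group means. For Mki67, Top2a and Diaph3 the injured-father points span the uninjured-father ones, and Ccnd3 is highest, at 432 CPM, in injured-father library 2.

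Counted together, 31 of the 43 members had a log2 difference above 0 (72.1%), beside 48.6% of all genes, with a median of 0.26 against -0.01. The median rested on single hearts: it was -0.20 without injured-father library 1 and 0.40 without injured-father library 2. Of the wider lists, 37 of 50 G2/M genes, 28 of 60 S genes and 19 of 32 control genes lay above 0, with medians of 0.18, -0.02 and 0.04, and none passed. Kif2c, a kinesin that takes microtubules apart, was at 1.90, E2f2 at 1.18 (adjusted p = 0.541) and Foxm1, the mitotic transcription factor, at 1.03.

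In cardiomyocyte-like nuclei alone, 28 members could be tested and 0 passed, with 1 of 12550 genes passing (0.00797%), and 2 of the members had an unadjusted p under 0.05, beside 4.12% of all genes. DESeq2 called 0 members as well. Kif11 was at 3.03 and 3.21 CPM with injured fathers, against 1.94 and 1.77 CPM with uninjured fathers (0.74, unadjusted p = 0.0479, adjusted p = 0.999, edgeR). Ezr went the other way, with 23.5 and 24.7 CPM, against 28.5 and 37.2 CPM (-0.44, unadjusted p = 0.0374). For both genes the groups did not overlap.

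Mki67 in cardiomyocyte-like nuclei was at 1.31 and 0.615 CPM with injured fathers, against 1.56 and 1.64 CPM with uninjured fathers (-0.79), and Cenpf at 11.5 and 9.09 CPM, against 12.7 and 13.4 CPM (-0.35). For both genes the injured-father values lay below the uninjured-father values, and neither gene passed. In sums over all nuclei, 17.8% of all genes were lower in both injured-father hearts. Top2a rested on 12 and 3 UMIs, against 14 and 4 UMIs. Diaph3 was at 3.83 and 1.57 CPM, against 4.0 and 3.03 CPM, and Anln at 4.14 and 2.87 CPM, against 2.88 and 5.55 CPM. The groups overlapped for both.

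The S members in cardiomyocyte-like nuclei overlapped between father groups for Pola1, at 66.9 and 52.4 CPM with injured fathers, against 60.8 and 46.5 CPM with uninjured fathers, for Mcm6, at 3.73 and 3.89 CPM, against 4.31 and 3.15 CPM, and for Rrm1, at 3.73 and 3.01 CPM, against 3.44 and 3.78 CPM. Brip1 was lower in both injured-father hearts, at 2.02 and 1.91 CPM, against 2.63 and 2.90 CPM. Of the cyclins, Ccnd3 was at 61.1 and 105 CPM, against 69.8 and 45.7 CPM, Ccnd2 at 38.2 and 31.2 CPM, against 32.2 and 34.4 CPM, and Ccnd1 at 3.03 and 1.78 CPM, against 2.13 and 2.78 CPM. Ccne2 was at 2.72 and 2.32 CPM, against 3.0 and 2.27 CPM, and Cdkn1a at 1.01 and 3.69 CPM, against 2.25 and 3.78 CPM, while E2f1 and Ccne1 had too few UMIs to be tested. All of these cyclins and Cdkn1a overlapped between the groups. Of the wider lists, Kif14, a mitotic kinesin, was at -0.84, Rpa2, a subunit of the single-strand binding complex, at 0.71 and Cdk6, a partner of the D-type cyclins, at 0.50, and none passed. The members' median was -0.08, with 11 of 28 above 0 (39.3%), beside 49.7% of all genes.

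Whether the difference between father groups itself differed between cardiomyocyte-like and other nuclei was tested by an interaction term. Of the 38 members 0 passed and 6 had an unadjusted p under 0.05, beside 6.03% of all genes, while 20 of 13986 genes passed (0.143%). Ezr had the smallest p among members, with a difference of -0.81 (unadjusted p = 0.0022, adjusted p = 0.261, edgeR). Prc1, a central spindle protein, was at -1.10, Mki67 at -1.09, Diaph3 at -0.75 and Cenpf at -0.72. For each of these the injured-father minus uninjured-father difference was more negative in cardiomyocyte-like nuclei than in the other nuclei of the same hearts, without passing.

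In the other classes 0 members passed by edgeR. The share of all genes that passed was 0.00804% in fibroblast-like, 0 in vascular endothelial-like, 0.0297% in pericyte-like, 0 in macrophage- or monocyte-like, 0.0354% in endocardial-like, 0 in B lymphocyte-like and 0.0463% in smooth muscle-like nuclei. Members tested numbered 32 in fibroblast-like, 25 in vascular endothelial-like, 27 in macrophage- or monocyte-like and 12 in pericyte-like nuclei, and 7, 4 and 4 in endocardial-, B lymphocyte- and smooth muscle-like nuclei.

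The lowest p in any class was that of Ccnd3 in smooth muscle-like nuclei, with 345 and 605 CPM with injured fathers, against 268 and 246 CPM with uninjured fathers (0.86, unadjusted p = 0.00546, adjusted p = 0.786, edgeR). In macrophage- or monocyte-like nuclei Kif11 was at 62.8 and 28.3 CPM, against 18.7 and 24.6 CPM (1.10, unadjusted p = 0.0351), and Aspm at 32.8 and 21.6 CPM, against 13.6 and 0 CPM (unadjusted p = 0.0287). Both sets of injured-father values were higher. In fibroblast-like nuclei Cdkn1a was at 8.60 and 11.5 CPM, against 6.04 and 6.19 CPM (0.74, unadjusted p = 0.0266), and in pericyte-like nuclei Ccnd2 was at 222 and 137 CPM, against 222 and 243 CPM (-0.38, unadjusted p = 0.0397).

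Single hearts decided several of these. Without injured-father library 1, Ccnd3 passed in fibroblast-like (0.88, adjusted p = 0.000684) and macrophage- or monocyte-like nuclei (1.02, adjusted p = 0.000458), and Ccnd1 in fibroblast-like (-1.13, adjusted p = 0.00229) and vascular endothelial-like nuclei (-1.06, adjusted p = 0.0198). Without injured-father library 2, Diaph3 passed in fibroblast-like nuclei (0.98, adjusted p = 0.0092). Without uninjured-father library 1, Ccnd3 passed in macrophage- or monocyte-like nuclei (0.84, adjusted p = 0.0312).

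**Figure D5:**
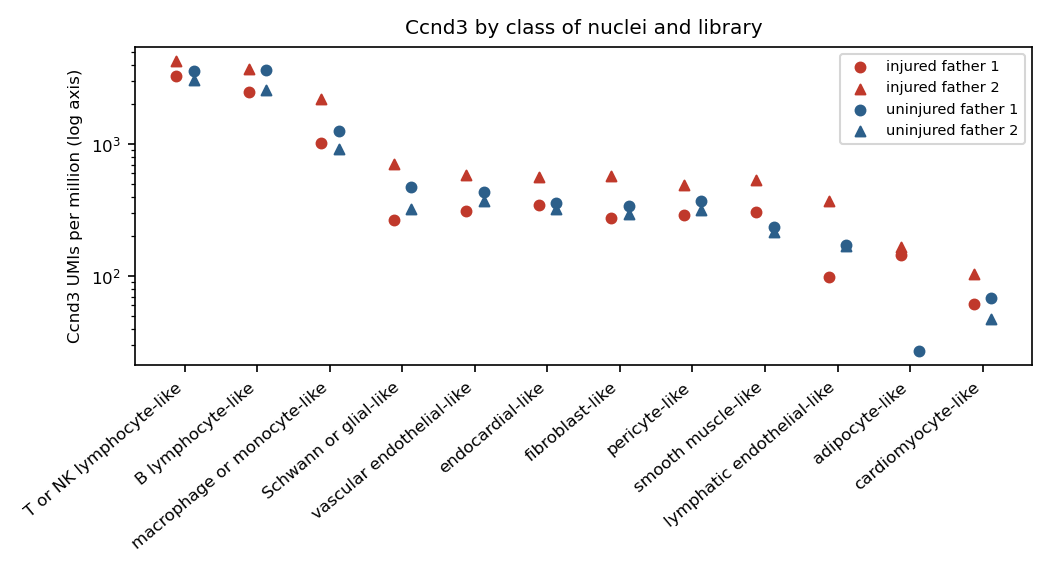
Ccnd3 level (CPM, log axis) in each class and library, injured-father libraries left of uninjured-father libraries; the adipocyte-like nuclei of uninjured-father library 2 (7 nuclei, 0 UMIs) cannot be drawn. Injured-father library 2 is the highest in 12 of 12 classes, for example at 2177 CPM in macrophage- or monocyte-like nuclei against 1023, 1255 and 918 CPM in the others.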

How the data were processed

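The authors deposited 1 matrix per heart of raw UMI counts per gene and barcode, with Cell Ranger 6.0.1 named, per the file headers; Seurat 4.0 is named in the submitters' processing notes. These deposited counts are whole numbers with no normalization, and the sources used here give neither genome build nor strand setting. All 44 members' identifiers were in the GENCODE M21 annotation of GRCm38, as were 21779 of 21884 in all.

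Barcodes were kept at 500 or more UMIs, 300 or more genes and under 5% mitochondrial UMIs, and Scrublet (Scanpy 1.11.5) marked doublets per library. Total counts kept per library were 23526412 and 32963609 (injured fathers) and 31513547 and 15682280 (uninjured fathers). Nuclei were clustered (3000 variable genes without any cell cycle gene of the lists, 30 principal components, 20 neighbours, Leiden resolution 1.0, leidenalg 0.10.2) and named by marker lists. Counts were summed per heart and class and tested with edgeR 4.0.16 in R 4.3.3 (filterByExpr, TMM, quasi-likelihood test, Benjamini-Hochberg over all genes of a fit), for classes with at least 50 nuclei in every heart. Father-group fits had no covariate, and the cardiomyocyte fit had the heart as a block. DESeq2 1.42.0 was an alternative, as were other scalings, filters, doublet treatments and clusterings, and leaving out each heart. Shares were compared by exact permutation tests. In simulated counts, 199 of 200 genes changed 4-fold were recovered in sums over all nuclei (14898 genes run) and 196 of 200 in cardiomyocyte-like sums. False calls numbered 16 and 12. Changes smaller than 4-fold were not simulated, so these runs do not show how often such changes would be missed.

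Members and lists were chosen with earlier results of these data known. Any member could be named; library values are given for the 5 G2/M and 4 S members with most UMIs, the G1 members, Ezr and members that passed, and of the wider lists for at most 4 genes by smallest p. Others with values, such as Kif11 and Aspm, were chosen after their values were seen. Promoters are from RefSeq.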

Additional observations from a re-analysis of the deposited data

Results flagged for a closer look

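For 5 members, both injured-father hearts moved one way against both uninjured-father hearts in one class, and the opposite way in another. That is 15.6% of the 32 members tested in 2 or more classes, beside 26.3% of 12316 genes, so it is no more frequent among the members. These differences between classes were not tested. The values are log2 differences between father groups, and none of the members passed in either class by edgeR. Ccnb2 was at 0.32 in cardiomyocyte-like and -0.34 in fibroblast-like nuclei. Mcm4, a helicase subunit, was at 0.48 in vascular endothelial-like and -0.35 in fibroblast-like nuclei. Mcm6 was at 0.47 in vascular endothelial-like and -0.23 in macrophage- or monocyte-like nuclei. Ccne2 was at 0.44 in fibroblast-like and -0.32 in vascular endothelial-like nuclei. Ezr was at 0.24 in vascular endothelial-like and -0.44 in cardiomyocyte-like nuclei.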

How the results depend on the processing

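With 2 hearts per group, no share could pass its test. Leaving out a heart turned the direction of 3 of the 4 share differences between father groups, the exception being S members in cardiomyocyte-like nuclei, and of many single-gene differences. Rare nuclei limit the cardiomyocyte shares (7 and 14 nuclei). Leaving out each heart in turn, the differences in percentage points (injured minus uninjured fathers) ran from -0.187 to 0.670 for G2/M and -0.282 to 0.353 for S over all nuclei, and from -0.0126 to 0.105 for G2/M and 0.0411 to 0.0929 for S in cardiomyocyte-like nuclei. The S difference over all nuclei, 0.0356, was -0.00629 with at least 3 members, -0.000393 when thinned to 500 UMIs, -0.0132 with doublets kept and -0.00817 without Cenpf, Anln, Diaph3 and Pola1. The cardiomyocyte G2/M difference, 0.0463, was -0.0597 with at least 1 member, -0.0173 with at least 3, -0.0799 when thinned to 2000 UMIs, -0.0173 with at least 5 and no thinning, and -0.0470 in a second draw of the thinning. The cardiomyocyte S difference, 0.0670, was -0.294 with at least 1 member, 0 with at least 3, -0.0558 when thinned to 500 UMIs, 0 with at least 5 and no thinning, -0.0224 in a second draw and -0.0236 without those genes. The settings with 5 members, a second draw, the left-out genes and library totals only were chosen after seeing the data.

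Calls of members between father groups stayed at 0 under every other setting in all nuclei and in the 8 classes; leaving out 1 heart gave 0 to 3 in all nuclei, 0 to 2 in fibroblast-like, 0 to 1 in vascular endothelial-like and 0 to 2 in macrophage- or monocyte-like nuclei, where Aspm reached 7.01 without uninjured-father library 1, against a group at 0 UMIs. Over all nuclei, E2f1 was at -0.00 (-0.00098) with doublets kept, and with library totals only Anln was at 0.00 (0.00031) and Brip1 at 0.0162. Leaving out 1 heart also turned Diaph3 (-0.35 to 0.86), Cenpf (-0.41 to 0.0431), Anln (-0.35 to 0.27), Mki67 (-0.47 to 0.88), Top2a (-0.40 to 0.89), Kif15 (-0.21 to 1.19), Brip1 (-0.31 to 0.25), Ccnd1 (-0.84 to 0.25), Ccnd2 (-0.35 to 0.16), E2f1 (-0.37 to 0.41), Cdkn1a (-0.43 to 0.72) and Ezr (-0.0539 to 0.00365). By class it turned Ccnd1 (-1.13 to 0.27), Ccnd3 (-0.20 to 0.88) and Diaph3 (-0.72 to 0.98) in fibroblast-like, Ccnd1 (-1.06 to 0.10) in vascular endothelial-like and Ccnd3 (-0.10 to 1.02) in macrophage- or monocyte-like nuclei.

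Between cardiomyocyte-like and other nuclei, 31 to 37 members were called with every heart kept, under all settings. With library totals only, 1 rose, Aspm was at -0.49, Ccne2 at -0.33 and Ezr at -0.00976. Leaving out 1 heart gave 30 to 34 calls, and Aspm ran from -0.0798 to 0.53. The deviations of same-numbered hearts had a correlation of 0.0909 over all nuclei. With 2 pairs this cannot decide whether such hearts shared a batch or litter. The replicate block was used as an alternative: with it the share differences were 0.241, 0.0356, 0.0463 and 0.0670, and 0 members were called. Genes called in all nuclei numbered 13, against 95 by DESeq2, 183 with no filter and 157 with the block; in cardiomyocyte-like nuclei the numbers were 1, 22, 181 and 89. Apart from those settings, the cause of each change was not tested.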

Other observations

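Among barcodes removed as predicted doublets, 50 of 4132 (1.21%) had at least 5 G2/M members, against 145 of 34002 (0.426%) among those kept. How many of the 50 were true doublets was not tested.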
